A study of Mus musculus with 6 samples.

Results

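The genes described here encode the machinery that carries a signal from a Gs-coupled receptor through cyclic AMP to protein kinase A (PKA), measured in mouse regulatory T cells (Tregs). They were chosen by function, as a list of 44 named genes: G protein subunits, adenylyl cyclases, PKA subunits and PKA inhibitors, phosphodiesterases, Epac and Rap proteins, A-kinase anchoring proteins (AKAPs), arrestins, G protein-coupled receptor kinases (GRKs) and a pair of prostaglandin receptors. The platform's annotation gave 43 of the 44 genes at least 1 probe set, 134 probe sets in all, out of 18193 genes on the array. For Rapgef4 no probe set was listed. Of the 43 genes, 38 passed a limit for dim genes, set at a mean signal of about 71.2 over all arrays, and were tested among 10916 genes.

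The series compared 6 expression arrays in 3 groups of 2. Each array held RNA of CD4+CD25+FoxP3+ Tregs, T cells that restrain immune responses, sorted by flow cytometry from spleen and lymph nodes of C57Bl/6 mice aged 8 to 11 weeks. All mice carried the FoxP3GFP reporter, and the 3 groups were A2AR+/+FoxP3GFP cells with DMSO (WT vehicle), A2AR-/-FoxP3GFP cells with DMSO (KO vehicle), and A2AR+/+FoxP3GFP cells with 10 nM ATL1222 (WT ATL1222), each cultured for 18 h. ATL1222 is an agonist selective for the adenosine receptor A2AR, and A2AR-/- cells lack that receptor. No knockout sample with agonist is analysed here. Replicates are called biological in the labels without naming separate animals, so a p-value here reflects the spread between arrays, which may be technical. Expression of the receptor's own gene is not reported, so the genotype has no expression check.

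A Gs-coupled receptor activates the G protein alpha subunit encoded by Gnas, which stimulates adenylyl cyclase to make cAMP. Binding of cAMP to the regulatory subunits of PKA frees its catalytic subunits, phosphodiesterases break cAMP down, AKAPs hold PKA near its substrates, and GRKs and arrestins switch the receptor off. A2AR signals through Gs, cAMP is known as a mediator of suppression by Tregs, and PKA phosphorylates the transcription factor CREB, which binds the cAMP response element (CRE) in promoters.

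Promoters of 36 of the 44 genes were found in a RefSeq table of assembly GRCm38.p6, in 73 windows of 300 bases around annotated start sites. The full CRE, TGACGTCA, which reads the same on both strands, lay in windows of 2 of these 36 genes, Prkar1a (in a pair of overlapping windows) and Rap1b. Over 27025 genes with such windows, 2.03% held it. The short CRE motifs TGACG and CGTCA, each the other's complement and both contained in the full motif, lay in windows of 20 of the 36 genes. The share over all genes was 23.0%, and a gene with more annotated starts has more windows to match in. Counted by window, 24 of the members' 73 windows held a short motif, beside 20.8% of 32851 windows. The 250 bases upstream of the start are printed for the genes with the full motif and for Pde4d, Gna13 and Rapgef6, the members that passed a test described in the results. Letters are lower case, 5′ to 3′ on the gene's strand, with every full or short CRE motif in capitals. The Prkar1a window at chr11:109650699-109650948 (plus strand) had the full motif 49 to 42 bases before the start and 1 further short motif, and that of Rap1b at chr10:117845975-117846224 (minus strand) had it 42 to 35 bases before. The table's only Pde4d window, at chr13:108653927-108654176 (plus strand), and the Gna13 window at chr11:109362544-109362793 (plus strand) held neither motif, and the Rapgef6 window at chr11:54522595-54522844 (plus strand) held 1 short motif. These matches are descriptions of the letters in each window.
Prkar1a: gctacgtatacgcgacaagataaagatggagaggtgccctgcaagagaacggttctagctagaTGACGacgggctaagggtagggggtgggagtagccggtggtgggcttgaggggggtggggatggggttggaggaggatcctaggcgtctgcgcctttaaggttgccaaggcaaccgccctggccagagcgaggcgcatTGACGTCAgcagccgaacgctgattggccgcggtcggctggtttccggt
Rap1b: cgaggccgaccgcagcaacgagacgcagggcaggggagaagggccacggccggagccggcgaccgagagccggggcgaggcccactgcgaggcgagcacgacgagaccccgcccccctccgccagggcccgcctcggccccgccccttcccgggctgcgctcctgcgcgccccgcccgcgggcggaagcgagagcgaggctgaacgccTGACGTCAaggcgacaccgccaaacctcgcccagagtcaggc
Pde4d: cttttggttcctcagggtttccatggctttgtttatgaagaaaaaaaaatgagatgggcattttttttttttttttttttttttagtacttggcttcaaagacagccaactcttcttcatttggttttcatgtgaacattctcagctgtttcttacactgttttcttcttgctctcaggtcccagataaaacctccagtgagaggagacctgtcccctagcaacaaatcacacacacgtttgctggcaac
Gna13: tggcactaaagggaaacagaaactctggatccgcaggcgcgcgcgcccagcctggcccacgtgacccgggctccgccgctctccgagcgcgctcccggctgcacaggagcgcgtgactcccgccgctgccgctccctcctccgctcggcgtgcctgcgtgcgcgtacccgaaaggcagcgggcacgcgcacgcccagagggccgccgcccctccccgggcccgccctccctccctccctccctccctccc
Rapgef6: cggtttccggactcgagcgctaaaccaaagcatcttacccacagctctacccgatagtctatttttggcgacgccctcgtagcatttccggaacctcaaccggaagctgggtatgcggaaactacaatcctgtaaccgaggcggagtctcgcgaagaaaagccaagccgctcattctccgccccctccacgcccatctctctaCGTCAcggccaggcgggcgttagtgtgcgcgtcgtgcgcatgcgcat

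Array values are signals in arbitrary units, scaled by the authors so that all arrays had the same trimmed mean. Pearson's r across the genes tested was 0.958 to 0.967 for arrays of the same group and 0.953 to 0.971 otherwise. Of 11 Treg markers, 10 lay above the limit for dim genes, and Foxp3, which defined the sort, was listed at 7.18 to 53.5, below it. Markers of other cells had low summed signals: myeloid 251 to 412, dendritic cell 249 to 366, CD8 T and NK cell 219 to 352, and erythroid, from 1 listed probe set, 11.2 to 59.1. The CD8 T and NK cell sum was highest in the knockout, at 321 and 352, beside 238 and 219 in WT vehicle and 225 and 229 with ATL1222. The dendritic cell sum was lowest there, at 275 and 249, beside 343 and 366 in WT vehicle and 308 and 360 with ATL1222. The 4 measured B cell markers summed to 6859 to 7948 on the vehicle arrays and 4721 to 4807 with ATL1222. Nearly all of this was Ighm, which fell with ATL1222 against WT vehicle (log2 -0.71 ± 0.13, limma adjusted p = 0.0445). Without Ighm the sum was 408 to 508 on the vehicle arrays and 523 and 530 with ATL1222, so the other B cell markers were not lower with the agonist. The 3 measured naive CD4 T cell markers summed to 11106 to 13716 but went different ways with the agonist against KO vehicle: Ccr7 rose (log2 0.80 ± 0.14, limma adjusted p = 0.00949), while Lef1 and Il7r gave -0.41 ± 0.16 and -0.40 ± 0.13 (limma adjusted p = 0.428 and 0.295, and 0.190 and 0.0432 with a replicate block). Among the Treg markers, Tnfrsf18, Tnfrsf4 and Ctla4 rose in that comparison, by 1.11, 0.98 and 0.75 on the log2 scale. Other Treg markers did not share this: Nrp1 gave -0.40 ± 0.14 (limma adjusted p = 0.369, or 0.0332 with the block). Il2ra and Cd3e gave -0.27 and -0.03, and Icos, Cd4, Entpd1 and Ikzf2 gave 0.22, 0.15, 0.13 and 0.12. The part of any of these cells in the results was not tested. Rgs2 and Crem, known cAMP-responsive genes, had no overlap between any of the groups. Rgs2 signals were 4051 and 3255 in WT vehicle, 1592 and 1285 in KO vehicle, and 12115 and 12894 with ATL1222, and Crem signals were 2093 and 1273, 566 and 462, and 6797 and 5925 in the same order.

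The first comparison, KO vehicle against WT vehicle, asked what loss of the receptor changes in unstimulated Tregs. No member of the cAMP machinery passed the test (limma adjusted p under 0.05), against 0.0275% of all genes, and 0 passed with the replicate number as a block, against 0.0824%. At an unadjusted p under 0.05 stood 1 of 38 members, Adcy6, where 3.89% of all genes did. The members' log2 fold changes ran from -0.41 to 0.53, with 13 above 0 and 25 below and a median of -0.066, beside 0.0048 for all genes tested. The 95% interval lay within a 2-fold change in either direction for 37 of the 38 members (97.4%), and for 75.1% of all genes. It lay within 1.5-fold for 23 members (60.5%), and for 38.0% of all genes. The members' median standard error was 0.16, beside 0.23 for all genes. Arrays did not overlap for 8 members that were higher and 9 that were lower in the knockout, beside 15.9% and 13.7% of all genes.

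The second comparison, WT ATL1222 against WT vehicle, asked what the agonist changes. Again no member passed the test in the fit without a replicate term, against 0.211% of all genes. Unadjusted p lay under 0.05 for 4 members, Pde4d, Gna13, Ptger2 and Ptger4, where 5.03% of all genes did. Log2 fold changes ran from -0.52 to 0.74, with 21 above 0 and 17 below, a median of 0.014 for the members and -0.0079 for all genes. Intervals lay within 2-fold for 34 of 38 members (89.5%), and for 74.3% of all genes. The 4 with wider intervals were Pde4d, Adcy9, Prkar2b and Pkig. With the replicate number as a block in the model, Pde4d and Gna13 passed, 2 members against 0.724% of all genes. Arrays did not overlap for 6 members higher and 8 lower with the agonist, beside 14.5% and 16.3% of all genes.

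The comparison of WT ATL1222 with KO vehicle sets the receptor engaged by agonist against the receptor absent. It shares its arrays with the other comparisons, so its values are not independent of theirs. Pde4d passed the test and rose, 1 of 38 members against 0.999% of all genes in either direction. With the replicate block Gna13 rose and Rapgef6 fell as well, 3 members against 2.42% of all genes. Unadjusted p lay under 0.05 for 6 members (Pde4d, Gna13, Rapgef6, Prkar1a, Adcy6 and Arrb1), where 8.48% of all genes did. Log2 fold changes ran from -0.53 to 1.06, with 19 above 0 and 19 below, a median of 0.017 for the members and -0.022 for all genes. Arrays did not overlap for 9 members higher and 10 lower, beside 17.4% and 20.9% of all genes.

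**Figure D1:**
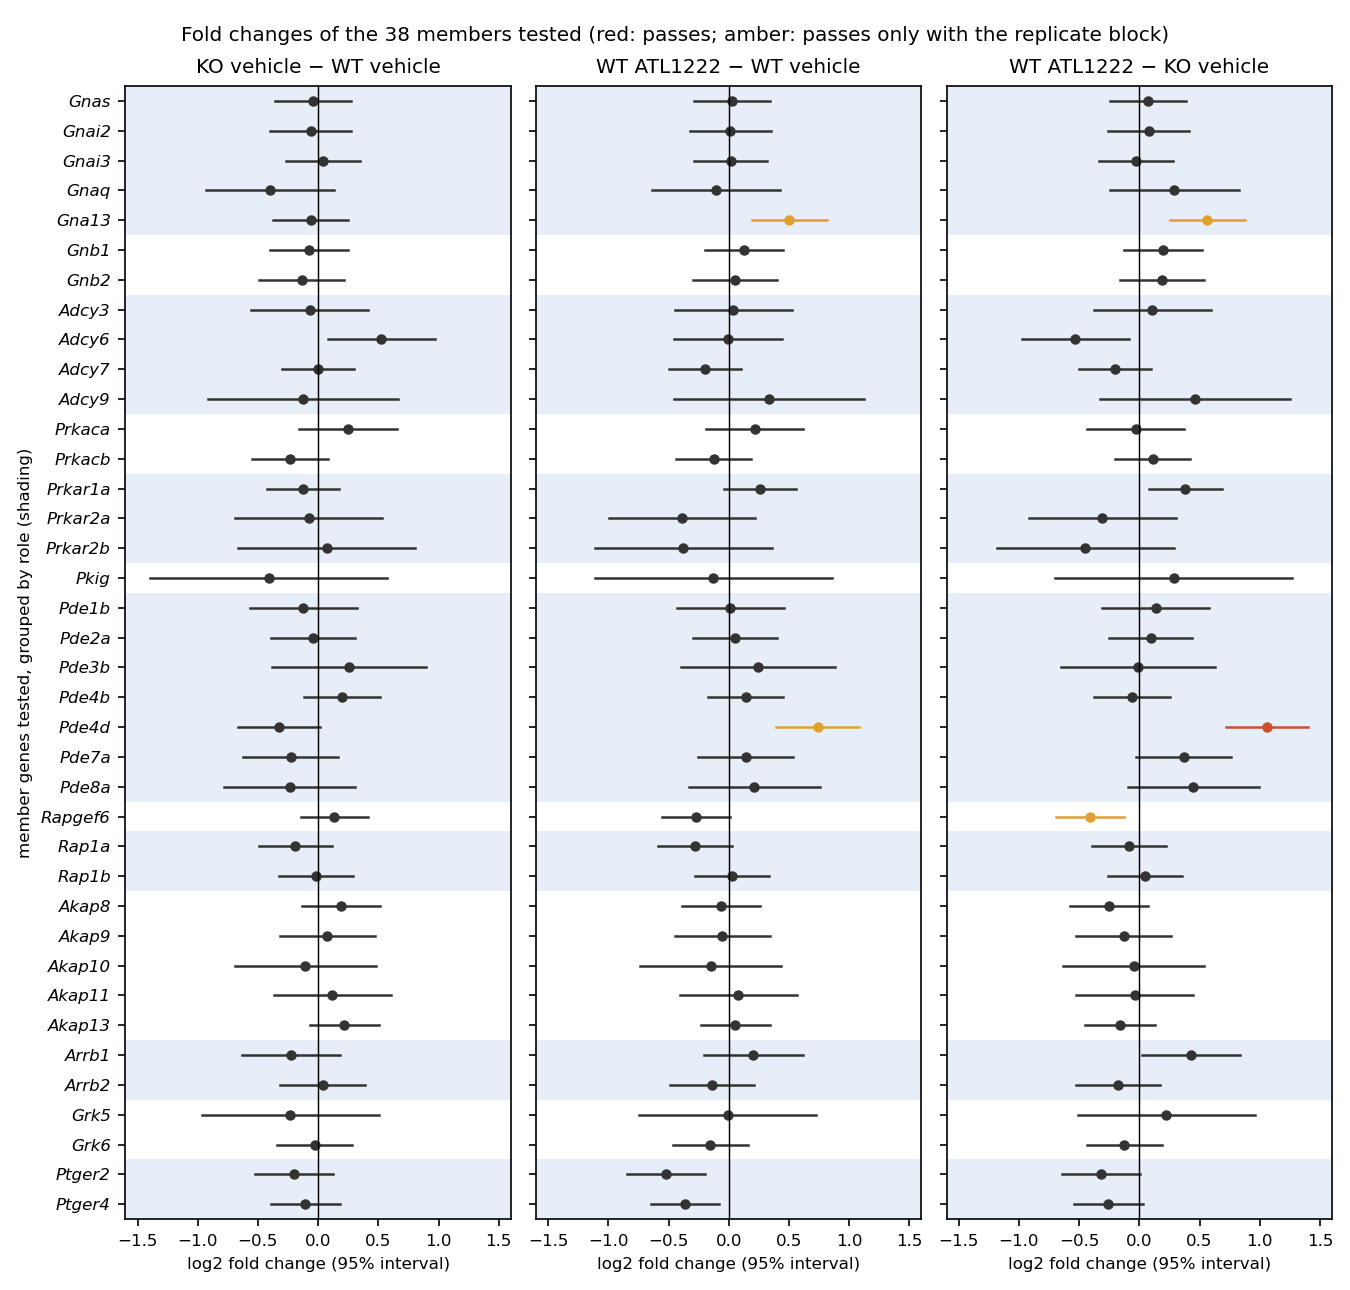
Log2 fold changes with 95% intervals of the 38 members tested (points and bars) in each of the 3 comparisons, in order of role, where alternate shading marks a change of role. Only Pde4d in WT ATL1222 against KO vehicle (red, 1.06) passed without a replicate term, and Pde4d and Gna13 against WT vehicle and Gna13 and Rapgef6 against KO vehicle (amber) passed with it.

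Arrays of replicate 1 and of replicate 2 differed in some measures in the same direction in every group. Poly-A control RNAs, which are spiked in before labelling, were brighter on replicate 1, by a ratio of 1.48 to 2.00 for Lys, 1.54 to 1.88 for Phe, 1.54 to 1.75 for Thr and 1.17 to 1.31 for Dap. Hybridization controls, added after labelling, did not share a direction: the Cre ratio was 1.13 in KO vehicle, and 0.906 and 0.858 in the wild-type groups without and with ATL1222. Among the 38 members, 19 (50.0%) had a higher signal on replicate 1 in all 3 groups, beside 24.0% of all genes tested. Restricted to mean signals over 1000, the shares were 14 of 21 members (66.7%) and 47.6% of all genes, and up to 1000 they were 5 of 17 members (29.4%) and 17.9%. Adcy3, Adcy6, Pde3b and Pde4b, 4 members (10.5%) beside 15.2% of all genes, were higher on replicate 2 in all 3 groups. The other 15 members had no common direction. The labels do not say what a replicate number shares. Fold changes within replicate 1 and within replicate 2 are therefore given beside the main results.

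**Figure D2:**
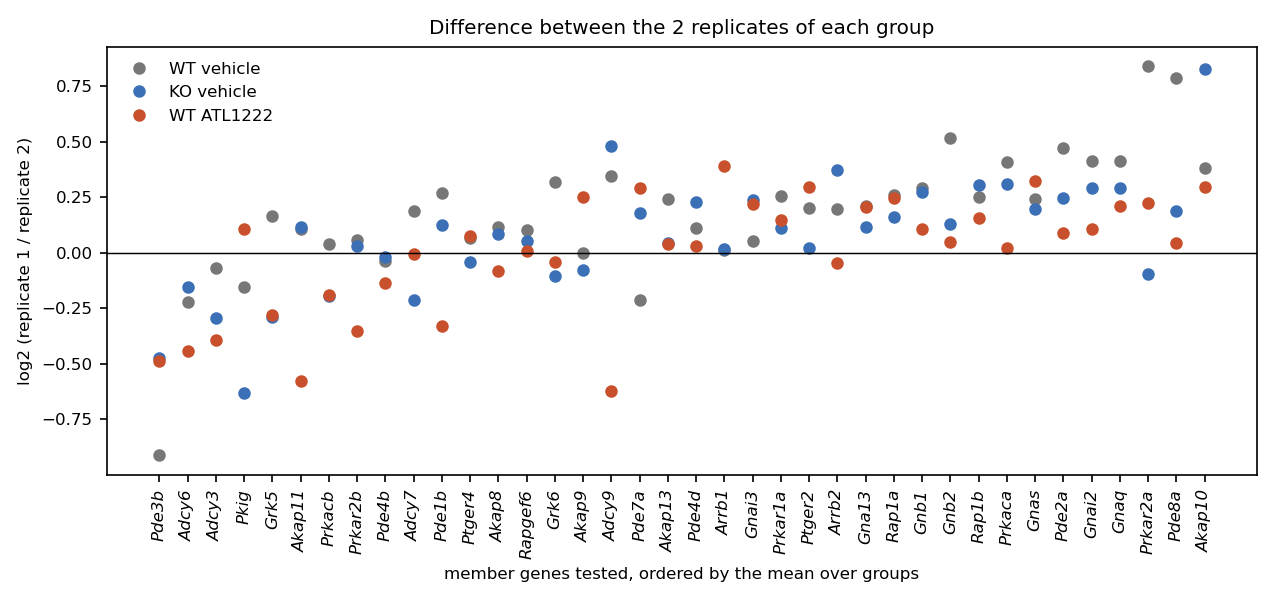
Log2 ratio of replicate 1 to replicate 2 in each group (colours) for the 38 members tested, ordered by the mean over groups. For 19 members all 3 points lie above 0, and for Pde3b, Adcy3, Adcy6 and Pde4b all 3 lie below.

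The prostaglandin E2 receptors Ptger2 (EP2) and Ptger4 (EP4) also couple to Gs. Ptger2 signals were 2348 and 2043 in WT vehicle, 1918 and 1890.1 in KO vehicle, and 1689 and 1374 with ATL1222. Both agonist arrays lay below all 4 vehicle arrays, and the knockout arrays lay between. The fold change of Ptger2 with the agonist was 1.43-fold lower than in WT vehicle (log2 -0.52 ± 0.15 SE, 95% interval -0.84 to -0.19, limma adjusted p = 0.442, or adjusted p = 0.0556 with the replicate block). Within replicates 1 and 2 it was -0.47 and -0.57. Against KO vehicle it was -0.32 ± 0.15 (limma adjusted p = 0.602), and in the knockout against WT vehicle -0.20 ± 0.15 (limma adjusted p = 1.00).

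For Ptger4 the signals were 2737 and 2609 in WT vehicle, 2447 and 2517 in KO vehicle, and 2131 and 2019 with ATL1222. Its order of groups was that of Ptger2, again with no overlap between the agonist arrays and the rest. The agonist difference from WT vehicle was -0.36 ± 0.13 SE on the log2 scale, 1.29-fold lower (limma adjusted p = 0.735, or adjusted p = 0.196 with the block), and -0.36 and -0.37 within replicates. A second, dimmer Ptger4 probe set gave 174 and 232, 214 and 238, and 149 and 148 in the same order of groups, a log2 difference of -0.40 from WT vehicle. Neither receptor gene passed the test. Ighm was lower on the same agonist arrays while the other B cell markers were not, and the part of B cells in the receptor values was not tested. In these bulk samples fewer cells of a type and less RNA per cell cannot be told apart.

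**Figure D3:**
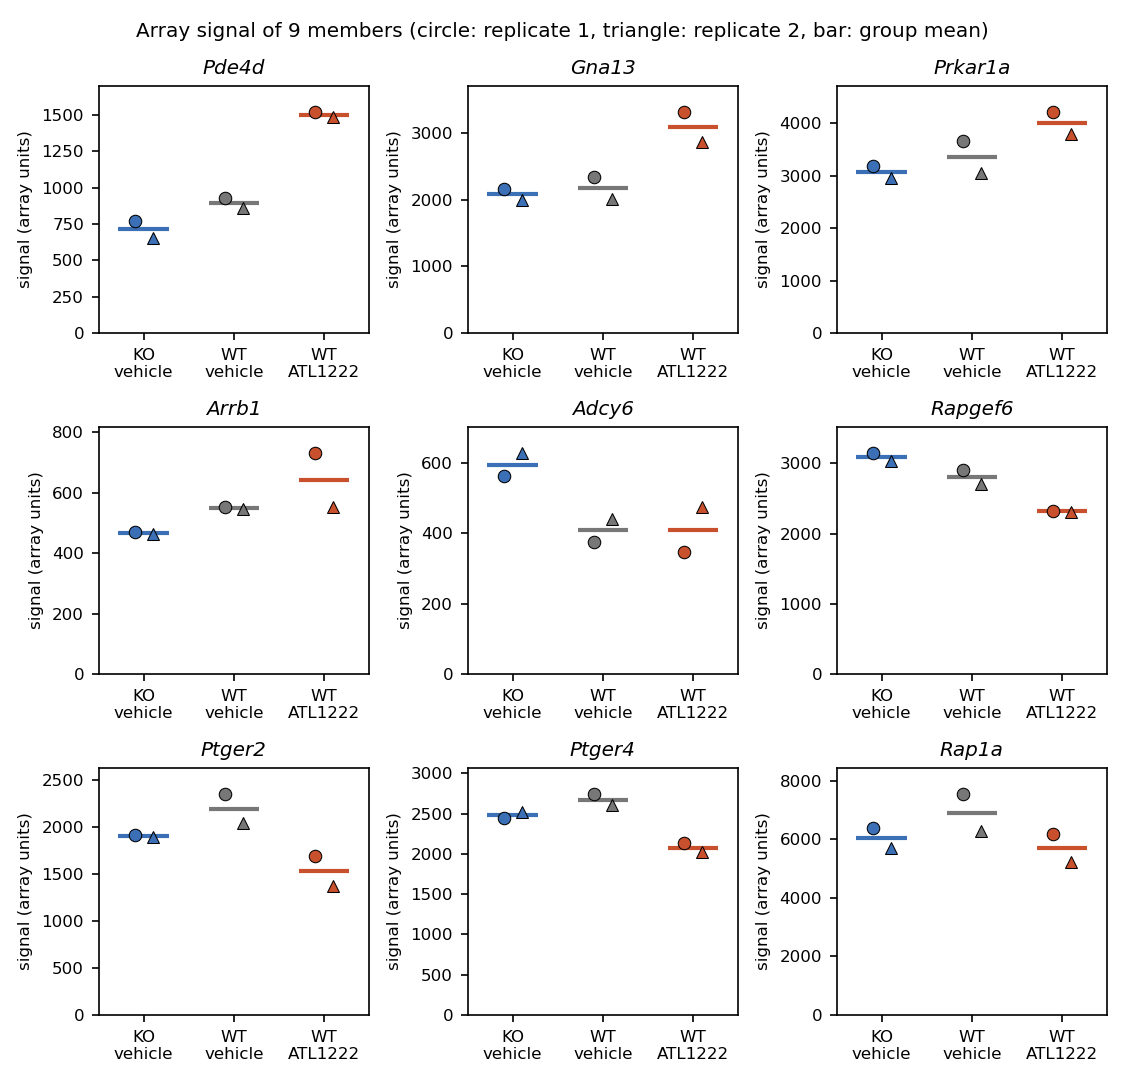
Array signal (arbitrary units, linear axes from 0) of 9 members in KO vehicle, WT vehicle and WT ATL1222, with circles for replicate 1, triangles for replicate 2 and bars for group means. The Pde4d agonist arrays, at 1518 and 1487, lie above the 4 vehicle arrays at 656 to 931, while the Ptger2 and Ptger4 agonist arrays lie below all vehicle arrays.

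Among the G protein alpha subunits, Gnas, which encodes Gs alpha, overlapped between the groups. Its signals were 9490.1 and 8015 in WT vehicle, 9056 and 7899 in KO vehicle, and 9931 and 7933 with ATL1222. Replicate 1 was higher than replicate 2 in each group. The Gnas log2 difference was 0.03 with the agonist against WT vehicle (95% interval -0.29 to 0.34) and -0.04 in the knockout (-0.36 to 0.27). Gnai2 encodes an inhibitory alpha subunit and gave 6251 and 4689, 5735 and 4684, and 5671 and 5265 in the same order of groups, with log2 differences of 0.01 and -0.06. Gnai3, another inhibitory subunit, gave 0.02 and 0.04.

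Gna13, whose alpha subunit belongs to another family than those of Gs and Gi, was higher with the agonist. Its signals were 2334 and 2017 in WT vehicle, 2164 and 1994 in KO vehicle, and 3309 and 2869.7 with ATL1222. Both agonist arrays lay above all vehicle arrays, while the wild-type and knockout vehicle arrays overlapped. Against WT vehicle Gna13 was 1.42-fold higher (log2 0.50 ± 0.14 SE, limma adjusted p = 0.401), and with the block it rose (adjusted p = 0.0340), with 0.50 and 0.51 within replicates. Against KO vehicle it was 1.48-fold higher (log2 0.57 ± 0.14, limma adjusted p = 0.111, or adjusted p = 0.00708 with the block). The knockout differed from WT vehicle by -0.06 ± 0.14.

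All 7 probe sets of Gna13 passed the limit when probe sets were tested singly. Against KO vehicle all 7 were positive, from 0.33 to 0.92, and against WT vehicle 6 of 7 were positive, from -0.24 to 0.52. The largest, with signals of 729 and 695 in WT vehicle, 471 and 561 in KO vehicle, and 1005 and 971 with ATL1222, was called against KO vehicle among 20967 probe sets (log2 0.92 ± 0.17, limma adjusted p = 0.0484). At that level 0.382% of all probe sets were called. Probe sets of a gene share the RNA of the same arrays and are not replicates. Gnaq, the alpha subunit that activates phospholipase C, had 342 and 253 in WT vehicle, 244 and 197 in KO vehicle, and 294 and 251 with ATL1222. The knockout arrays were the lowest (log2 -0.40 ± 0.25 against WT vehicle, limma adjusted p = 1.00). In that comparison 3 of its 5 tested probe sets were positive, within a range of -0.40 to 0.40. Its 5 tested probe sets went in opposite directions beyond their standard errors with the agonist, from -0.90 to 0.44 against WT vehicle and from -1.07 to 0.29 against KO vehicle.

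**Figure D4:**
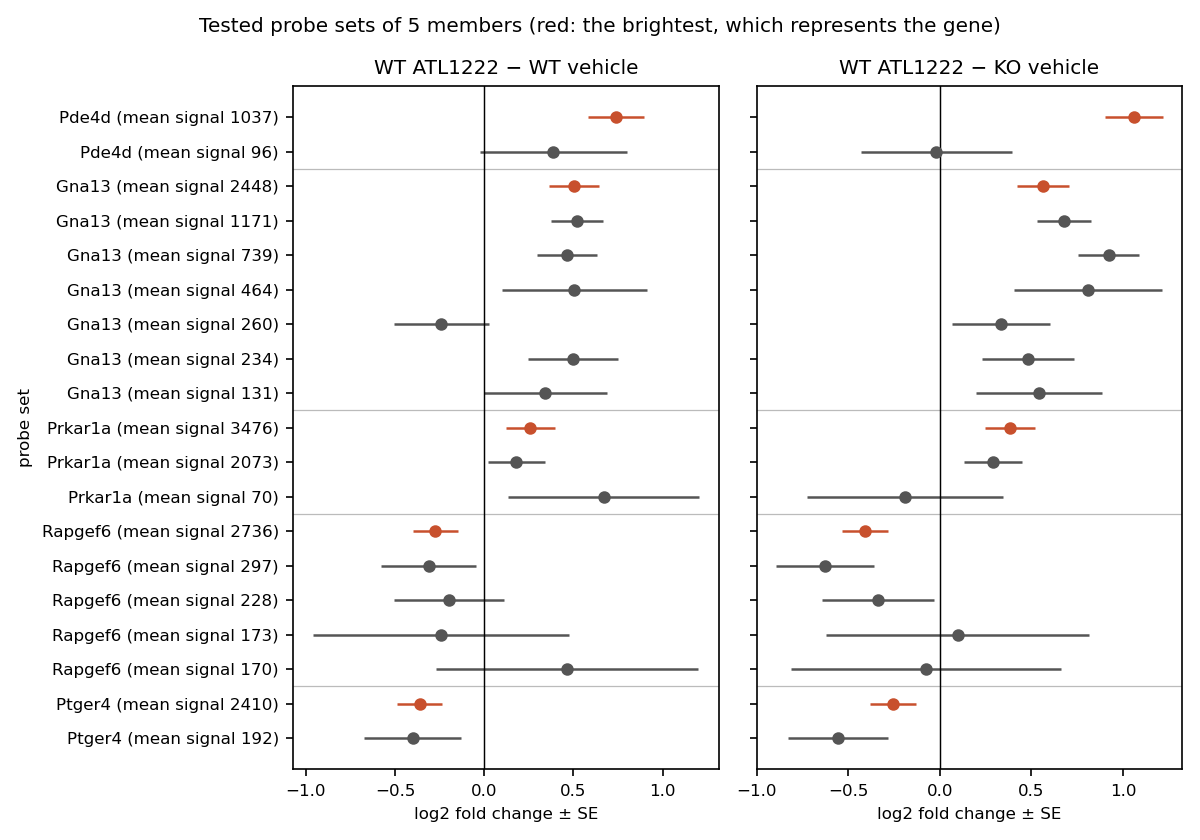
Log2 fold change ± SE of each tested probe set of Pde4d, Gna13, Prkar1a, Rapgef6 and Ptger4 with ATL1222, against WT vehicle (left) and KO vehicle (right), with the probe set that represents the gene in red and the mean signal over 6 arrays beside the name. The 7 Gna13 probe sets lie between 0.33 and 0.92 against KO vehicle, while the dim Pde4d probe set lies at -0.02 with a wide error.

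The beta subunits Gnb1 and Gnb2 had log2 differences of 0.12 and 0.05 with the agonist against WT vehicle and 0.20 and 0.19 against KO vehicle. Neither passed (smallest limma adjusted p = 0.829).

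Adenylyl cyclases, which make cAMP, were represented by 4 genes, and none passed in any comparison. Adcy6, an isoform inhibited by calcium, had signals of 376 and 441 in WT vehicle, 562 and 626 in KO vehicle, and 346 and 475 with ATL1222. The 2 knockout arrays were the highest of the 6, and the wild-type groups overlapped. In the knockout Adcy6 was 1.44-fold above WT vehicle (log2 0.53 ± 0.21 SE, unadjusted p = 0.0243, limma adjusted p = 1.00, or adjusted p = 0.507 with the block), and 0.56 and 0.49 within replicates. With the agonist its log2 difference was -0.53 ± 0.21 against the same knockout arrays (limma adjusted p = 0.427) and -0.01 ± 0.21 against WT vehicle. Adcy7, a form prominent in blood cells, had 3247 and 2846 in WT vehicle, 2824 and 3274 in KO vehicle, and 2641 and 2653 with ATL1222. The agonist arrays were the lowest, at -0.20 ± 0.14 against each vehicle group. Its 3 probe sets were all negative with the agonist, from -0.32 to -0.08 against WT vehicle and from -0.53 to -0.20 against KO vehicle. In the knockout against WT vehicle they ran from 0.0005 to 0.31. Adcy3 and Adcy9 gave 0.04 and 0.34 with the agonist against WT vehicle, the latter with an interval of -0.45 to 1.13.

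Of the PKA catalytic subunit genes, Prkaca had signals of 767 and 575 in WT vehicle, 883 and 709 in KO vehicle, and 779 and 768 with ATL1222. Its log2 differences from WT vehicle were 0.25 ± 0.19 in the knockout and 0.22 ± 0.19 with the agonist. The probe set carries the platform's x suffix, given to probes that can match other transcripts. A second, dimmer Prkaca probe set gave 0.05 ± 0.25 and 0.06 ± 0.25 in the same comparisons. Prkacb had 1934 and 1879, 1511 and 1729.9, and 1634 and 1865 in the same order. WT vehicle was the highest group, and the log2 differences were -0.24 ± 0.15 in the knockout and -0.13 ± 0.15 with the agonist.

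Prkar1a encodes the regulatory subunit RI alpha, which binds cAMP and restrains the catalytic subunits, and is the gene printed above with the full CRE. Its signals were 3657 and 3057 in WT vehicle, 3183 and 2949 in KO vehicle, and 4207 and 3802 with ATL1222. Both agonist arrays lay above all vehicle arrays. Against KO vehicle Prkar1a was 1.30-fold higher (log2 0.38 ± 0.14 SE, 95% interval 0.08 to 0.68, limma adjusted p = 0.377, or adjusted p = 0.0581 with the block), and 0.40 and 0.36 within replicates. Against WT vehicle it was 0.26 ± 0.14 (limma adjusted p = 0.998). Its second bright probe set gave 0.29 and 0.18 in these comparisons. The type II regulatory subunits Prkar2a and Prkar2b had negative differences with the agonist, -0.39 ± 0.28 and -0.38 ± 0.34 against WT vehicle, and neither passed. Prkar1b lay below the limit for dim genes.

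The PKA inhibitor genes gave little signal. Pkia was listed at 1.69 and 3.58 in WT vehicle, 24.9 and 23.5 in KO vehicle, and 21.9 and 34.2 with ATL1222. All 6 values lie below the limit and were not tested. Pkig had an interval of -1.11 to 0.86 with the agonist against WT vehicle, among the widest of the members.

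Phosphodiesterases break down cyclic nucleotides, and 7 of the 8 genes listed were tested. In WT ATL1222 against WT vehicle all 7 had positive log2 differences, from 0.01 to 0.74, with a limma adjusted p of 0.0967 for Pde4d and 0.998 for each of the other 6. Only Pde3b, Pde4b and Pde4d were positive within both replicates. The sign differed between replicates 1 and 2 for Pde1b (-0.29 and 0.31), Pde2a (-0.14 and 0.24), Pde7a (0.39 and -0.11) and Pde8a (-0.16 and 0.58). Pde4d, a cAMP-specific enzyme, had signals of 931 and 859.7 in WT vehicle, 772 and 656 in KO vehicle, and 1518 and 1487 with ATL1222. The groups were ordered knockout, wild type, agonist with no overlap between any of them, and group means were 714 ± 82.0 (SD, n = 2), 895 ± 50.2 and 1502 ± 22.5. Pde4d rose 2.09-fold with the agonist against KO vehicle (log2 1.06 ± 0.16 SE, 95% interval 0.72 to 1.40, limma adjusted p = 0.00337, or adjusted p = 2.81e-04 with the block), and by 0.96 and 1.16 within replicates.

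Against WT vehicle Pde4d was 1.67-fold higher (log2 0.74 ± 0.16 SE, 95% interval 0.40 to 1.08, limma adjusted p = 0.0967). With the block it rose (adjusted p = 0.0111), and within replicates the differences were 0.70 and 0.78. In the knockout it differed from WT vehicle by -0.32 ± 0.16 (limma adjusted p = 1.00, or adjusted p = 0.610 with the block), and by 0.04 with the mean of its 2 probe sets, so the order of knockout and wild type held only for the bright probe set. The rise against KO vehicle rested on the bright probe set. A second Pde4d probe set gave 53.0 and 105 in WT vehicle, 116 and 94.9 in KO vehicle, and 93.9 and 114 with ATL1222, a log2 difference of -0.02 ± 0.41 against KO vehicle. With the mean of the 2 probe sets the call was lost (log2 0.52, limma adjusted p = 0.549), as it was without a variance trend (adjusted p = 0.196) and without WT ATL1222 replicate 1 (log2 1.05, adjusted p = 0.0582).

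The other phosphodiesterases differed less. Pde4b, a related cAMP-specific enzyme, had 1154 and 1186 in WT vehicle, 1333 and 1353 in KO vehicle, and 1229 and 1354 with ATL1222. WT vehicle was the lowest group, with log2 differences of 0.20 ± 0.15 in the knockout and 0.14 ± 0.15 with the agonist. A dim probe set of Pde4b went the other way with the agonist, at -0.50 ± 0.49, beside 0.29 ± 0.20 for the most positive. Pde3b, a gene known to be repressed in Tregs by FoxP3, had 207 and 402, 293 and 414, and 289.5 and 412 in the same order of groups. Its replicate 2 arrays were higher than its replicate 1 arrays in every group, and its group differences from WT vehicle, 0.26 ± 0.30 and 0.25 ± 0.30, lay within their errors. Pde2a, which cGMP stimulates, gave 0.05 ± 0.16 with the agonist against WT vehicle. Pde7a and Pde8a, both cAMP-specific, were 0.37 ± 0.18 and 0.45 ± 0.25 above KO vehicle with the agonist (limma adjusted p = 0.636 and 0.713). In that comparison 5 of 7 tested Pde7a probe sets were positive, within a range of -0.06 to 0.53. A second, dim Pde8a probe set gave -0.06 ± 0.55. Pde4a lay below the limit for dim genes.

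Epac proteins are exchange factors that cAMP activates directly to load the GTPase Rap1. The Epac1 gene Rapgef3 lay below the limit, with signals of 18.8 to 89.9. Rapgef6, a relative that also activates Rap1, had 2908 and 2707 in WT vehicle, 3139 and 3027 in KO vehicle, and 2324 and 2313 with ATL1222. The groups did not overlap, with the knockout highest and the agonist lowest, the reverse of the order for Pde4d. Against KO vehicle Rapgef6 was 1.33-fold lower with the agonist (log2 -0.41 ± 0.13 SE, 95% interval -0.69 to -0.13, limma adjusted p = 0.262), with -0.43 and -0.39 within replicates, and with the block it fell (adjusted p = 0.0463). Against WT vehicle the difference was -0.27 ± 0.13 (limma adjusted p = 0.998). Of its 5 tested probe sets, 4 were negative against each vehicle group.

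The Rap1 GTPase genes gave strong signals. Rap1a had 7524 and 6288 in WT vehicle, 6375 and 5704 in KO vehicle, and 6175 and 5208 with ATL1222. Its log2 difference with the agonist was -0.28 ± 0.14 against WT vehicle (limma adjusted p = 0.998), and -0.28 and -0.27 within replicates. Rap1b, the other gene with the full CRE, had 10492 and 8812, 10557 and 8550.3, and 10352 and 9288 in the same order. Replicate 1 was higher in every group, the groups overlapped, and the difference with the agonist was 0.03 (95% interval -0.28 to 0.34).

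Among the AKAPs 5 of 6 genes were tested, and none passed. All 5 had small negative log2 differences with the agonist against KO vehicle, from -0.25 to -0.04, beside 5832 of all 10916 genes. The sign differed between replicates 1 and 2 for Akap9 (0.04 and -0.29), Akap10 (-0.31 and 0.22) and Akap11 (-0.38 and 0.31). Positive in that comparison were 3 of 5 tested probe sets of Akap9, 3 of 5 of Akap13, 1 of 3 of Akap10 and 0 of 2 of Akap8. Akap13, a large anchoring protein of PKA, had 3866 and 3265 in WT vehicle, 4196 and 4066 in KO vehicle, and 3745 and 3639 with ATL1222. The knockout was the highest group, at 0.22 ± 0.13 against WT vehicle (limma adjusted p = 1.00). Other Akap13 probe sets ranged from -0.39 to 0.43 in that comparison, opposed beyond their standard errors. Akap8, a nuclear AKAP, gave -0.25 ± 0.15 with the agonist against KO vehicle, and Akap1 lay below the limit.

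Arrestins and GRKs end receptor signalling. Arrb1 (beta-arrestin 1) had 551 and 545 in WT vehicle, 470.3 and 464 in KO vehicle, and 729 and 552 with ATL1222. The 3 groups were ordered knockout, wild type, agonist, but the agonist arrays spread widely and the lower of them lay close to WT vehicle. The log2 difference from KO vehicle was 0.43 ± 0.19 (unadjusted p = 0.0403, limma adjusted p = 0.546), and 0.62 and 0.24 within replicates. Arrb2 (beta-arrestin 2) had 1469 and 1281, 1605 and 1236, and 1225 and 1264 in the same order, a difference of -0.14 ± 0.16 with the agonist against WT vehicle. Grk6, a kinase prominent in immune cells, had 3155 and 2526, 2667 and 2867, and 2501 and 2573, a difference of -0.15 ± 0.14. Grk5 gave -0.01 ± 0.34.

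A wider list of 84 other genes of these families and of other Gs-coupled receptors had 43 genes that could be tested. None passed in any comparison, beside the shares of all genes given above, and their median log2 differences were 0.02 in the knockout and 0.01 with the agonist against either vehicle group. Unadjusted p lay under 0.05 for 0 of the 43 in the knockout comparison, where 3.89% of all genes did. It did so for 5 of the 43 in each agonist comparison, beside 5.03% of all genes against WT vehicle and 8.48% against KO vehicle. With the replicate block 1 of the 43 passed against KO vehicle, beside 2.42% of all genes. This was Gnb4, another G protein beta subunit, which rose with the agonist. Its signals were 566 and 496 in WT vehicle, 374 and 434 in KO vehicle, and 754 and 666 with ATL1222 (log2 0.79 ± 0.19 SE, limma adjusted p = 0.0705, or adjusted p = 0.0206 with the block). The 3 genes with the smallest p were Gnb4 (-0.38), Gnao1 (-0.98) and Akap8l (0.32) in the knockout comparison. They were Gna15 (0.84), Gng12 (-0.65) and Sipa1 (0.45) with the agonist against WT vehicle, and Gnb4, Gng12 (-0.67) and Sipa1l1 (0.47) against KO vehicle.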

How the data were processed

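RNA of 6 Treg samples was measured on expression arrays. The deposited values are array signals, linear intensities for 45101 probe sets, made by the authors with GCOS per the submitters' processing notes. Its version and the summarization method are not given in the labels or notes used here. Biotin labelling started from total RNA, per the labels' protocols. The authors' scaling was kept: every array had a trimmed mean of 250.0, and medians ran from 74.68 to 98.17. The 3' to 5' signal ratio ran from 1.21 to 1.45 for Gapdh and from 1.93 to 2.53 for Actb.

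Control probe sets (64) were left out. The platform annotation named 1 gene for 34945 probe sets, several for 932 and none for 9160, and 34741 matched a gene table by Entrez identifier. Each gene was represented by its brightest probe set, values were taken as log2(signal + 16), which understates changes of dim genes, and the lowest 40% of genes were left out. Differences were tested on all 6 arrays with limma 3.58.1 (R 4.3.3), with a variance trend and Benjamini-Hochberg adjustment over all genes at 0.05. The pipeline was tested on simulated data. The number of arrays limits the precision.

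Given with the value of every array were 22 members: those past the threshold in the fit with or without the replicate block or over every probe set, the 6 with the smallest p in each comparison, and 16 key members. The members and gene lists were chosen with earlier results of these data known. Alternatives were the pseudocount, the dim limit, the probe set rule, normalization, variance trend, arrays in the fit, each array left out, and the replicate block. Replicate differences correlated between groups with r = 0.23, 0.23 and 0.147 over 10916 genes, and the labels do not say what a number shares, so the block stayed an alternative and its value is given beside results whose call it changes. The expression of 1 gene is not reported here.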

Additional observations from a re-analysis of the deposited data

How the results depend on the processing

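In the knockout comparison 0 members passed under every setting tried. In WT ATL1222 against WT vehicle, where 0 passed, 1 (Pde4d) passed with cyclic loess normalization, 2 (Pde4d and Gna13) with the replicate block, and 1 (Pde4d) with every probe set and the block together, an alternative chosen after seeing the data. Against KO vehicle, where 1 passed, the count was 0 with the mean of a gene's probe sets and 0 without a variance trend. It was 2 (Pde4d and Gna13) with every probe set tested singly, with quantile normalization, with cyclic loess, and with every probe set and the block, and 3 with the replicate block, which added Gna13 and Rapgef6. Leaving out 1 array at a time gave 0 to 1, with 0 only without WT ATL1222 replicate 1. The median of the members in the knockout comparison, -0.066, was 0.025 with the mean of probe sets and ran from -0.18 without WT vehicle replicate 2 to 0.076 without WT vehicle replicate 1. It moved with single arrays and carries no direction. The other medians moved by less than the spread between replicates.

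Alternatives gave 1134 values of single members, for the named members that were tested. Of these values, 53 had another sign, none in a comparison in which that member passed. Several alternatives, such as the dim limit, the variance trend and the block, leave a log2 difference as it was, so no sign could change there. The 53 include the knockout value of Gnaq, the largest of them in the main setting at 0.40 in size, which reached 0.03 under an alternative. They also include the knockout values of Pde4d, which was 0.04 with the mean of probe sets, and of Gna13, which was 0.04 without WT vehicle replicate 1. Over all genes the block raised the calls from 3 to 9, from 23 to 79 and from 109 to 264 in the 3 comparisons. Without a variance trend they were 0, 0 and 5, with the mean of probe sets 0, 3 and 44, and without a limit for dim genes 3, 14 and 70. With every probe set tested singly they were 0, 18 and 80. Cyclic loess and leaving out the lowest 60% each gave 36 and fitting only the 4 arrays compared gave 44 in the second comparison. Leaving out 1 array moved these background counts too, to 3 to 7, 5 to 39 and 42 to 133. The second count was 5 without WT ATL1222 replicate 1 or WT vehicle replicate 2 and 39 without either KO vehicle array. The third was 42 without WT ATL1222 replicate 1 and 61 without KO vehicle replicate 2. The first was 7 when replicate 2 of WT vehicle was left out and 5 when that of KO vehicle was. No paired design is stated in the labels. The block gives arrays of the same replicate number a common offset, and what that number stands for is not known. The cause of these shifts was not tested. Dim members, such as Pkia and Rapgef3, cannot be judged at this signal over background.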

Other observations

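Several probe sets of members, chosen after their values were seen, were brighter on replicate 2 in every group, whereas more of the members were brighter on replicate 1. A second Gnas probe set gave 82.8 and 360.4 on replicates 1 and 2 of WT vehicle, 87.4 and 175 in KO vehicle, and 61.6 and 351 with ATL1222. A second Rapgef6 probe set gave 41.7 and 241, 81.5 and 305, and 82.2 and 271 in the same order, and an Akap9 probe set gave 100.2 and 345, 70.2 and 289.8, and 111 and 300.1. An Akap13 probe set gave 1034 and 2488, 980.5 and 1518, and 1332 and 1729. The probe sets that represent Gnas and Rapgef6 were higher on replicate 1 in every group, so for these genes the direction of the replicate difference depended on the probe set.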
